A study of Mus musculus with 18 samples.

Results

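Metallothioneins and zinc transporters were followed in mouse liver as 7 genes, Mt1, Mt2, Mtf1, Slc30a1, Slc30a10, Slc39a4 and Slc39a14, taken by gene symbol from 15572 genes in the deposited transcript count table. They were chosen by their RNA-seq difference between refed groups, in which Mt1 and Mt2 are among the strongest rises, so their RNA values are given as a description and without a test. RNA-seq compared liver of refed wild-type mice (WT) with liver of refed mice lacking the histone demethylase JMJD1C in liver (JMJD1C-LKO, here LKO), with 2 libraries per group, each made from pooled RNA. ATAC-seq, which maps open chromatin, covered 2 livers each of fasted WT, refed WT and refed LKO mice, and ChIP-seq of dimethylated lysine on histone H3 (H3K9me2), a mark of repressed chromatin that JMJD1C is reported to remove, covered 2 livers each of fasted and refed WT mice, in both assays 1 mouse per sample. The comparison of LKO with WT asks which genes of the refed liver differ when JMJD1C is lost.

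All mice were c57bl/6j, kept on chow and fasted overnight, and refeeding was with a high carbohydrate diet for 6 h by the labels, whereas the methods of the study give a longer range. The labels give the same treatment to every sample, so fasted and refed follow the sample titles, read with the study's own account. LKO mice carried floxed Jmjd1c and a Cre driven by the albumin promoter, which acts in hepatocytes and leaves the other liver cells with the gene, and WT animals were littermates. The samples hold no fasted LKO group, and the input samples were not analysed here.

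Zinc in a cell is held by metallothioneins, small cysteine-rich proteins that also bind copper and cadmium, and it is moved across membranes by SLC30 carriers, which take it out of the cytosol, and SLC39 carriers, which bring it in. The transcription factor MTF1 senses free zinc, binds metal response elements (MREs) in DNA and drives metallothionein genes and Slc30a1. In liver the metallothionein genes are also known to respond to glucocorticoids and to the cytokine IL-6.

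Some facts of the whole series bear on these values. Total estimated counts lay between 51265128 and 54400509 per RNA-seq library, and values per library are given as CPM, counts scaled to library size by edgeR's TMM method. Jmjd1c was at 22.0 and 22.8 CPM in the WT and at 20.0 and 20.5 CPM in the LKO libraries, a log2 fold change of −0.14 (SE 0.08). These counts cover whole transcripts and the sources used here do not place the deleted part on them, so they do not check the labels, and LKO stands for the libraries labelled as such. The study reports a larger fall of Jmjd1c mRNA, by RT-qPCR, and no detectable protein in LKO liver. In unscaled estimated counts the less abundant Jmjd1c transcript had 280 and 479 in WT and 171 and 268 in LKO libraries. The other had 860 and 709 in WT and 819 and 861 in LKO libraries. Hepatocyte markers were high in every library, with summed CPM from 101842 to 116802, and 0 of 6 passed edgeR's test, with 0 at an unadjusted p under 0.05 and 0 called by DESeq2, while 2 of 6 were called higher without LKO replicate 2. All 5 Kupffer cell markers, genes of the resident liver macrophage, rose, with summed CPM of 187 to 193 in WT and 367 to 528 in LKO libraries. Of 4 endothelial markers 3 rose, from summed CPM of 58.3 to 61.2 in WT up to 82.9 to 111 in LKO libraries. By the same test 14.6% of all genes tested rose and 13.4% fell. Of the pancreatic acinar markers 6 of 7 and of the islet markers 3 of 3 are not in the table, and Cela2a was at 0.135 to 0.345 CPM.

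Mt1 and Mt2, the metallothionein genes of the liver, lie side by side on chromosome 8 in the same direction, Mt2 at chr8:94172618-94173567 and Mt1 at chr8:94179089-94180327 (GRCm38.p6, + strand). Their annotated starts are 6471 bp apart and 5521 bp separate the end of Mt2 from the start of Mt1. Each has 3 exons, in messages of 556 and 542 bases. Their coding sequences, of 186 bases each, are 79.6% identical, and the longest run of bases that the messages share is 20 bases, which bears on how far reads could be split between them. The 250 bases before the RefSeq start are shown for these genes and for Slc30a1 and Slc30a10, the members that differed between the groups, with MRE cores in capitals. The cores searched were TGCACNC and TGCGCNC, on both strands, and a word read on the other strand is shown as it stands on the strand of the gene.

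Mt1: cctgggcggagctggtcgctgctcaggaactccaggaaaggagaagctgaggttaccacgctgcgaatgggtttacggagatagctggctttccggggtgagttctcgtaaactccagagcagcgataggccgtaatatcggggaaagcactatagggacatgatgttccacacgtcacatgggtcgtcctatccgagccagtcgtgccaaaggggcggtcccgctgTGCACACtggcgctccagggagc

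Mt2: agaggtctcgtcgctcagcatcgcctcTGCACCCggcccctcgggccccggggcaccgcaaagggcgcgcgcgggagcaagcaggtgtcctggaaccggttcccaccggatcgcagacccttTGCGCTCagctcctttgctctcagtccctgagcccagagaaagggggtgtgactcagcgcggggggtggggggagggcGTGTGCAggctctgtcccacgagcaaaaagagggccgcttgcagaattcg

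Slc30a1: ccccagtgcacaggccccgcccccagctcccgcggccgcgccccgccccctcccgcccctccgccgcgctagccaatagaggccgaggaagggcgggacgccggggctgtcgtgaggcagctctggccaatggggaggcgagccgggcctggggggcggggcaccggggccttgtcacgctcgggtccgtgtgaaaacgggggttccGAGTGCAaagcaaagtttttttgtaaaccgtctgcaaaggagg

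Slc30a10: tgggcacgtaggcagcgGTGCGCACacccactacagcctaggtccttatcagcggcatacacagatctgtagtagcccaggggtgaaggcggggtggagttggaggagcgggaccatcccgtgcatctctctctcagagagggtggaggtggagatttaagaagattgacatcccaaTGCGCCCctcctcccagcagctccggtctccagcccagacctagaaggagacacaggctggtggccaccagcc

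These RefSeq windows lie at chr8:94178839-94179088 for Mt1, chr8:94172368-94172617 for Mt2, chr1:191906531-191906780 for Slc30a1 and chr1:185454598-185454847 for Slc30a10, all on the + strand of GRCm38.p6. Mt1 held 1 core, Mt2 3 cores, Slc30a1 1 core and Slc30a10 3 cores, of which a pair at −233 and −232 overlap as the same 8 bases read on both strands. Mtf1 held 0 cores, and Slc39a4 and Slc39a14 have no entry in the promoter table, so 5 of 7 genes were searched. Among 32851 promoters of the same length, 21.4% hold at least 1 core and 1.26% hold at least 3. The E-box CACGTG, the sequence that USF-1 binds, was found in 0 of the 5 windows and in 6.02% of all promoters. The E-box count covers only these bases before the RefSeq start.

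Where transcription of Mt1 and Mt2 begins in these livers was not measured, and the RefSeq starts may lie upstream of the starts in common use, so cores counted after the annotated start may still belong to the promoter. Counted over 500 bases centred on the start, Mt1 held 5 cores and Mt2 held 7 cores, of which 4 lay after the start in each gene. Of 31646 annotated starts, 0.623% have at least 5 cores and 0.0411% at least 7 in such a window. Slc30a10 had 4 cores there (1.88% of starts have as many) and Slc30a1 had 2 cores (16.0% of starts). The first pair after the annotated Mt1 start, from base 3 to base 27 counted from it at chr8:94179091-94179115, is 25 bases long.

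Mt1 MRE pair: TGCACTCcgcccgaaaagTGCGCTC

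A match to these letters is a description of the window and not a bound site.

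Mt1 mRNA was at 75.7 and 63.0 CPM in the WT libraries and at 302 and 390 CPM in the LKO libraries. Both LKO libraries stood above both WT libraries. The fitted difference was 4.99-fold, a log2 fold change of 2.32 (SE 0.13, n = 2 per group). Mt2 was at 29.3 and 23.7 CPM in the WT and at 159 and 204 CPM in the LKO libraries. Again the groups did not overlap, and the fitted difference was 6.84-fold, a log2 fold change of 2.77 (SE 0.14). By size of the log2 fold change Mt2 ranked 55th from the top of 14151 genes tested.

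The metallothionein genes moved together from library to library. LKO replicate 2 exceeded LKO replicate 1 by 1.29 times for Mt1 and 1.28 times for Mt2 in CPM, and WT replicate 1 exceeded WT replicate 2 by 1.20 times for Mt1 and 1.24 times for Mt2. The summed Kupffer cell markers were also higher in LKO replicate 2 than in LKO replicate 1, by 1.44 times, and the summed endothelial markers by 1.34 times. So were the summed glucocorticoid-induced genes described below, by 1.39 times, the stellate cell markers by 1.23 times and the cholangiocyte markers by 1.17 times. For the summed hepatocyte markers and acute phase genes the ratio was 0.885 and 0.893. The acute phase sum is mostly Hp, Hpx, Fga, Fgb and Fgg, and Fgb is also in the hepatocyte list. Among the acute phase genes called higher, Saa1, Saa2, Saa3, Orm2 and Lcn2 stood higher in LKO replicate 2, and Orm1, Hpx and Crp lower. The part of these cell types in the metallothionein values was not tested. In bulk liver more cells of a type and more RNA per cell cannot be told apart.

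Per length, in TPM, which scales a count by transcript length and library size, Mt1 was the more abundant metallothionein message in both groups. It averaged 220 TPM in WT and 1083 TPM in LKO liver and moved from the top 4.05% to the top 0.794% of 15489 genes. Mt2 averaged 82.0 TPM in WT and 553 TPM in LKO liver, and moved from the top 8.85% to the top 1.72%. In WT liver Mt2 stood near Slc39a14, at 65.1 TPM, and Slc39a4, at 62.9 TPM, whereas in LKO liver both metallothionein messages stood well above all the carriers. Mt3 and Mt4, the metallothionein genes of brain and squamous epithelium, are not listed in the table.

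**Figure D1:**
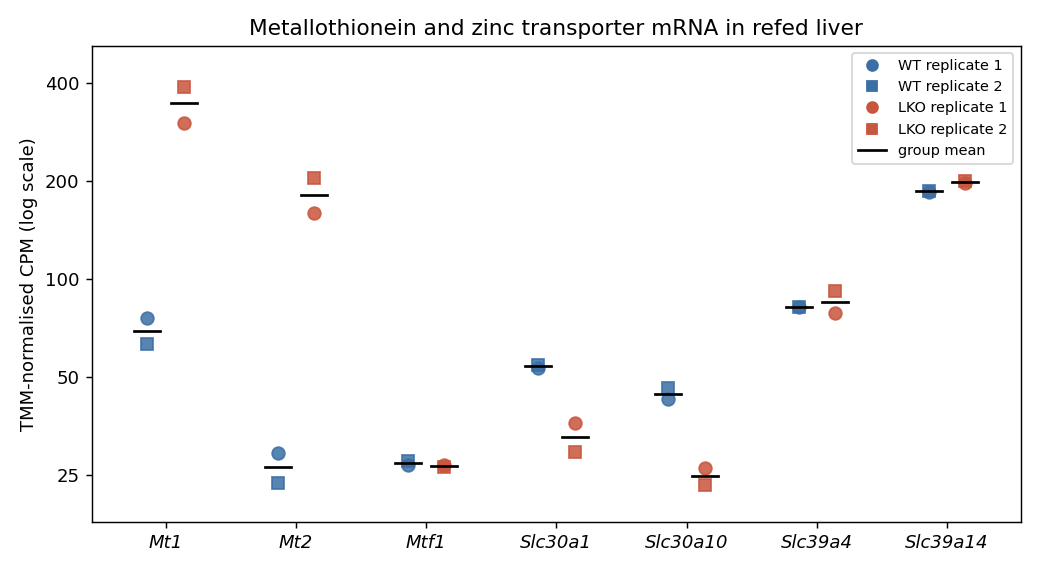
TMM-normalised CPM on a log axis for the 7 genes in the 2 WT (blue) and 2 LKO (red) refed libraries, with a bar at each group mean. Mt1 and Mt2 sit higher and Slc30a1 and Slc30a10 lower in both LKO libraries, while Mtf1, Slc39a4 and Slc39a14 lie close together.

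Mtf1 (chr4:124802549-124849800, + strand), the metal-sensing factor itself, was at 26.9 and 27.6 CPM in the WT and at 26.9 and 26.5 CPM in the LKO libraries. The 4 values lie within a few percent of each other, with a log2 fold change of −0.03 (SE 0.08). Its message level was low per length, 6.15 TPM in WT and 5.92 TPM in LKO liver.

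The zinc exporter genes were lower. Slc30a1 (chr1:191906781-191913247, + strand) encodes the exporter of the plasma membrane, and it was at 53.5 and 54.4 CPM in the WT and at 36.2 and 29.5 CPM in the LKO libraries. The WT values were nearly alike and both LKO values lay under them, at a log2 fold change of −0.72 (SE 0.10), 1.64-fold lower in LKO liver. Slc30a10 (chr1:185454848-185468762, + strand), which belongs to the same family and exports manganese from hepatocytes, was at 42.8 and 46.2 CPM in the WT and at 26.4 and 23.4 CPM in the LKO libraries. Its log2 fold change was −0.84 (SE 0.09), 1.79-fold lower in LKO liver, with no overlap of the groups. In both exporter genes LKO replicate 2 had the lower value. That library also lay further from WT in the summed Kupffer cell markers, and nearer to it in the summed acute phase genes. As described above, Hp, Hpx and the fibrinogen genes make up most of that sum, and the called members were split. A relation of the exporter values to metallothionein message was not tested. Slc30a10 ranked 345th and Slc30a1 535th from the bottom of the 14151 genes tested.

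The importer genes stayed near their WT level. Slc39a4 (chr15:76612383-76616870, − strand), the importer best known from dietary zinc uptake in the intestine, was at 82.1 and 82.1 CPM in the WT and at 78.4 and 92.1 CPM in the LKO libraries. The LKO values lie on either side of the WT values, and the log2 fold change was 0.06 (SE 0.09). Slc39a14 (chr14:70303467-70351424, − strand), which carries zinc, manganese and iron into hepatocytes and is known to respond to IL-6, was at 185 and 187 CPM in the WT and at 197 and 200 CPM in the LKO libraries. Both LKO values were above both WT values by a small margin, with a log2 fold change of 0.10 (SE 0.08).

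Slc39a14 is listed as 3 transcripts, of which 1 begins at a second start within the gene, at chr14:70348433. In estimated counts, not scaled for depth, that transcript had 4087 and 3802 in the WT and 4039 and 4448 in the LKO libraries. The 2 transcripts from the first start had 3179 and 3072 against 3277 and 3633 counts, and 2335 and 2869 against 2432 and 2948 counts, in WT and LKO libraries. The ranges of the groups overlap for the transcript of the second start and for 1 of the others. How the counting divided reads among these transcripts is not given in the sources used here.

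All 7 genes passed the filter on low counts. At the threshold used for the other genes, an adjusted p of 0.05 over all genes in edgeR's quasi-likelihood test, 2 of the 7 lay above it as higher (Mt1 and Mt2; 14.6% of all genes tested) and 2 as lower in LKO liver (Slc30a1 and Slc30a10; 13.4% of all genes), and nothing is read from these counts because the same contrast chose the genes. In 6 of 7 the groups did not overlap, as in 67.5% of all genes tested. The median log2 fold change was 0.06 over the 7 genes and 0.01 over all genes.

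The remaining zinc carriers of both families were steady by comparison. Of 20 further SLC30 and SLC39 genes 18 were listed and 17 tested, and 16 of the 17 had a log2 fold change within 0.5 of zero. Their median was 0.04, against 0.01 over all genes. The groups did not overlap in 5 of 6 tested SLC30 genes and 5 of 11 tested SLC39 genes, against 67.5% of all genes tested. Under edgeR's quasi-likelihood test 0 of the 17 rose and 1 fell (14.6% and 13.4% of all genes). At an unadjusted p under 0.05 there were 1 higher and 2 lower, and DESeq2 also called 0 higher and 1 lower. That gene was Slc30a3, a carrier best known from synaptic vesicles, at 1.72 and 1.59 CPM in the WT and at 0.688 and 0.472 CPM in the LKO libraries. Its log2 fold change was −1.52 (SE 0.31, adjusted p = 0.0070), at a level near the bottom of what was tested. Without WT replicate 1 its adjusted p was 0.071 and without WT replicate 2 it was 0.060, with log2 fold changes of −1.46 and −1.57, so the call was lost while the difference was about as large. With 1 WT library left, that library is assumed to vary like the LKO group. The next lowest was Slc39a10, with a log2 fold change of −0.38 (adjusted p = 0.36), and the highest was Slc39a13, with a log2 fold change of 0.33 (adjusted p = 0.061).

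**Figure D2:**
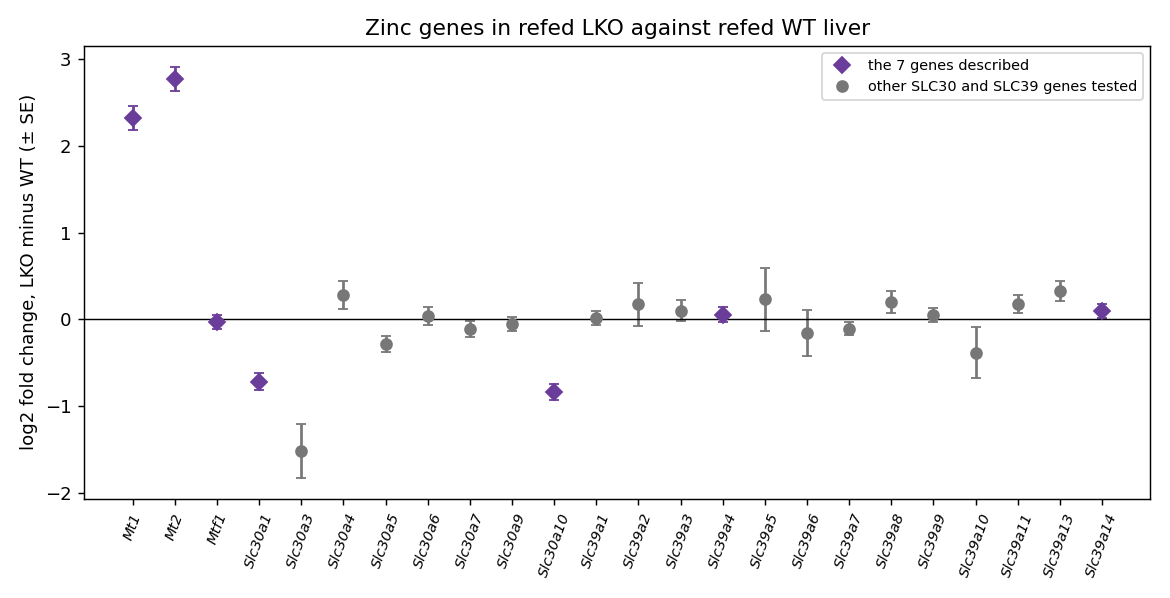
Log2 fold change of LKO minus WT refed liver with its standard error for the 7 genes (purple diamonds) and the 17 other SLC30 and SLC39 genes tested (grey circles). The metallothionein points lie at 2.32 and 2.77, Slc30a1 and Slc30a10 at −0.72 and −0.84, and Slc30a3 is the single grey point far from zero.

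Other genes known to answer to MTF1 were counted as a list, whatever direction of answer is known for each. Of 7 such genes 2 rose and 2 fell (14.6% and 13.4% of all genes), with a median log2 fold change of 0.06. Ndrg1, a stress-responsive gene, rose from 5.07 and 4.91 CPM in WT up to 11.5 and 16.4 CPM in LKO libraries (log2 fold change 1.49, adjusted p = 0.00041). Csrp1, a LIM-domain gene, rose with a log2 fold change of 1.16 (adjusted p = 0.0025). Gclc, the catalytic subunit of glutathione synthesis, fell 2.68-fold (log2 fold change −1.42, adjusted p = 0.00021), and Slc40a1, the iron exporter, also fell (log2 fold change −0.34, adjusted p = 0.017). With either of the WT libraries left out, 1 of these genes was called lower in place of 2. Hamp, which encodes the iron hormone hepcidin, had a log2 fold change of 0.06 (adjusted p = 0.73).

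Genes that handle copper and manganese, the other metals these proteins carry, were followed as further lists. Of 12 copper genes 1 rose and 1 fell (14.6% and 13.4% of all genes), and the list had a median of −0.08. Both are assembly factors of cytochrome oxidase, Sco2 with a log2 fold change of 0.77 (adjusted p = 0.0059) and Sco1 with −0.41 (adjusted p = 0.014). Without WT replicate 1 none of the list was called lower, and without WT replicate 2 none was called in either direction. Of 4 further manganese genes 0 rose and 2 fell (14.6% and 13.4% of all genes), with a median log2 fold change of −0.24. They were Slc11a2, a metal importer, with a log2 fold change of −0.43 (adjusted p = 0.014) and Atp2c1, a Golgi manganese pump, with −0.28 (adjusted p = 0.037). DESeq2 called 0 higher and 1 lower, 0 were higher at an unadjusted p under 0.05, and with either of the WT libraries left out 0 of the manganese genes were called.

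Lists of the hormone and cytokine pathways known to act on metallothioneins were counted in the same way, and no list was compared with another. Of 8 glucocorticoid-induced genes 7 rose and 0 fell (14.6% and 13.4% of all genes), with a median log2 fold change of 0.85. The number lower was 0 also in DESeq2 and at an unadjusted p under 0.05. Tat, tyrosine aminotransferase, was at 592 and 516 CPM in the WT and at 1992 and 2908 CPM in the LKO libraries (log2 fold change 2.15, adjusted p = 5.7e-05). Zbtb16, a transcription factor gene, rose with a log2 fold change of 1.64 (adjusted p = 0.00019) and Tsc22d3, which encodes the anti-inflammatory protein GILZ, with 0.90 (adjusted p = 0.00047). Dusp1 had a log2 fold change of −0.10 (adjusted p = 0.51). The number called ranged from 5 to 7 across the alternatives tried, and without LKO replicate 2 a member of the list was called lower.

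Of 16 acute phase genes that IL-6 induces 8 rose and 0 fell (14.6% and 13.4% of all genes), with a median log2 fold change of 0.33. The number lower was 0 also in DESeq2 and at an unadjusted p under 0.05. Saa1, serum amyloid A, was at 11.6 and 13.3 CPM in the WT and at 72.6 and 73.7 CPM in the LKO libraries (log2 fold change 2.55, adjusted p = 1.4e-06). Lcn2, lipocalin, and Orm2, orosomucoid, rose with log2 fold changes of 2.58 (adjusted p = 4.8e-06) and 1.86 (adjusted p = 1.1e-05). Saa1 and Orm2 have close paralogs, between which the counting could split reads. Socs3, the feedback inhibitor of the pathway, had a log2 fold change of 0.00 (adjusted p = 0.98). Without WT replicate 2 the number higher was 5 of 16 and without LKO replicate 2 it was 10 of 16, and 1 member was called lower without LKO replicate 1 and with the replicate number as a block. The factor NRF2 answers to oxidative stress, and its list of 7 targets shares Gclc with the MTF1 list. The median log2 fold change of this list was −0.38. Of the 7 targets 0 rose and 4 fell (14.6% and 13.4% of all genes), with 1 higher in DESeq2 and at an unadjusted p under 0.05. They were led by Gclc, Gclm (log2 fold change −0.95, adjusted p = 0.00052) and Txnrd1 (log2 fold change −0.58, adjusted p = 0.0022), genes of glutathione and thioredoxin, and without WT replicate 2 the count was 2 of 7. The part of any of these pathways in the metallothionein values was not tested.

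**Figure D3:**
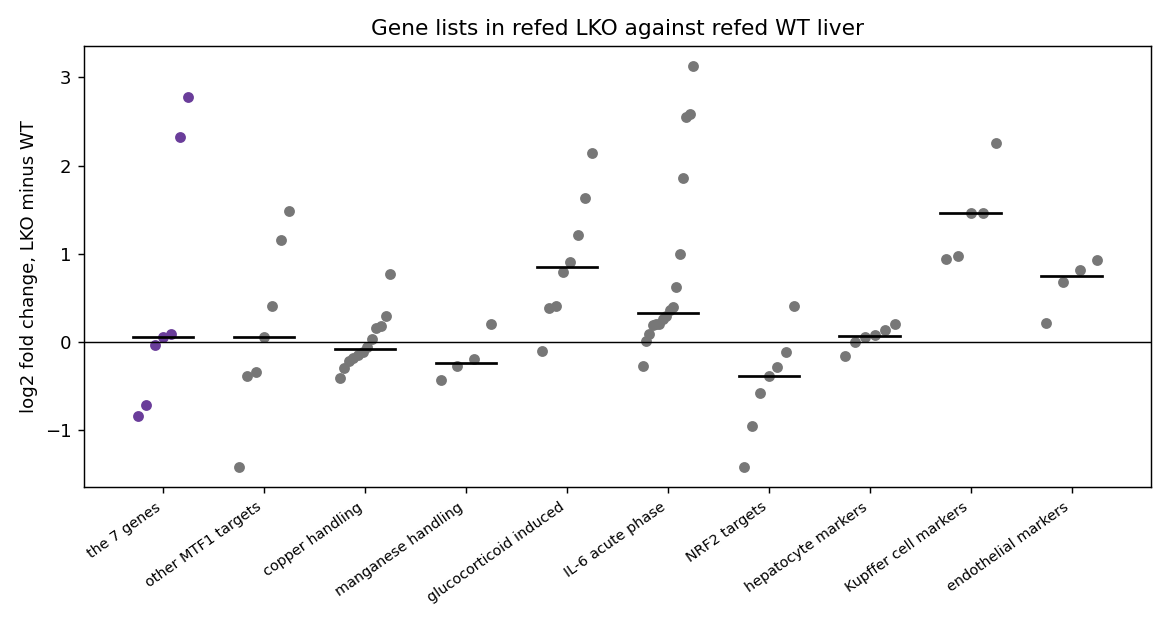
Log2 fold change of LKO minus WT refed liver for each tested gene (points) of the 7 genes described and of 9 gene lists, with a bar at each list's median. The glucocorticoid, acute phase, Kupffer cell and endothelial lists lie mostly above zero and the NRF2 list mostly under it, while the hepatocyte markers lie near zero.

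The genes whose log2 CPM followed the mean of Mt1 and Mt2 most closely over the 4 libraries, after each gene was centred on its own mean, were Lcn2, Srrm4, Got1, Ctcfl and C4bp-ps1. The root mean square difference was 0.074 for Lcn2 and 0.145 for C4bp-ps1, on the log2 scale, and 0.115 for Mt1 and Mt2 themselves. Got1, an aminotransferase of the cytosol, was at 76.2 and 72.0 CPM in the WT and at 365 and 581 CPM in the LKO libraries, and C4bp-ps1, Srrm4 and Ctcfl were all under 8 CPM. C4bp-ps1 is a pseudogene that may share reads with its parent gene. With 4 libraries in 2 groups, likeness of this kind is mostly likeness of the difference between the groups.

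Chromatin was compared through peak summits, the single positions at which the authors' peak caller found the highest signal. A summit counted for a gene when it lay within 1000 bp of an annotated start. The files hold no read counts, so the depth behind a summit is unknown, and scores were compared only by rank within a liver. With 2 livers against 2 an exact permutation test cannot go under p = 0.333, so no test was made.

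No ATAC-seq summit lay at the start of any of the 7 genes in any of the 6 livers, that is 0 of 7 in each. Of all genes tested in RNA-seq, 71.8% have no such summit in any liver either. The share of tested genes with a summit was 20.2% and 9.28% for fasted WT, 16.7% and 10.5% for refed WT and 6.66% and 1.31% for refed LKO livers. The nearest ATAC-seq summit to Mt1 lay between 28300 and 901920 bp away, and the nearest to any of the 7 genes was 27045 bp from Slc30a1. These short lists therefore hold no measurement of accessibility at the 7 genes, and an absent summit is not evidence of closed chromatin.

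H3K9me2 summits were present at all 7 genes in both WT fasted livers, 7 of 7 in each. Of the genes tested in RNA-seq, 51.6% and 74.1% had one. Among all 7668 and 11177 genes with such a summit in these livers, 7127 and 10240 were genes tested in RNA-seq. Most genes with a summit had thus passed the filter on low counts, and a summit is not read as repression here. The refed livers were unlike each other. Refed replicate 1 stands apart from the other samples, with 1297 summits in place of 7690 to 13456, and 0.123% of tested genes had a summit at their start in it. None of the 7 genes had one there. In refed replicate 2, 4 of 7 genes had a summit, against 61.6% of the tested genes.

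Mt1, Mt2 and Slc39a4 were the 3 genes with a summit in both fasted livers and in neither refed liver. That combination was found in 1.85% of the tested genes, and in 3.61% of the 7089 tested genes that have a summit in both fasted livers. The values are the same when refed replicate 1 is left out, since it held no summit that refed replicate 2 lacked among those genes. The summits of these 3 genes were among the weaker ones of the fasted livers. Where the strongest summit of a gene lay in the weaker 50% of the list in both fasted livers, as in all 3, 20.7% of 806 tested genes had no summit in a refed liver. Where it lay in the stronger 50% in both, the share was 0.521% of 3839 genes.

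At Mt1 the fasted summits lay at +398 and +303 bp from the start, in intron 1, with ranks of 4167 of 7690 and 6767 of 13456 summits. At Mt2 they lay at +636 bp in intron 2 and at +574 bp in coding exon 2, with ranks of 6789 and 12706, near the end of both lists. At Slc39a4 they lay upstream, at −100 and −80 bp, with ranks of 5186 and 8580. With a minimum score of 5, on the −log10 scale of the q-value, Mt2 was lost in fasted replicate 2 and the number of genes with fasted summits alone was 2. When every list was cut to its 1297 strongest summits that number was 0.

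The other 4 genes kept a summit in refed replicate 2. At Slc30a1 the summit lay in coding exon 1, at +302 and +539 bp in the fasted livers and at +289 bp in the refed liver, with ranks of 1862 of 7690, 2144 of 13456 and 253 of 9929. At Slc30a10 it also lay in coding exon 1, at +656, +686 and +633 bp, with ranks of 7039, 3163 and 204. Ranks come from lists of unequal length and from 1 refed liver with summits at these genes, so no difference between feeding states is read from them. At Mtf1 the summit lay in intron 1 at +225, +277 and +225 bp, with ranks of 1350, 234 and 2688. At Slc39a14 it lay in intron 1 at +248, +273 and +698 bp, with ranks of 901, 242 and 407, and a second and weaker summit stood +189 bp from the second start in fasted replicate 2 and +815 bp from it in refed replicate 2.

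The fasted livers placed their summits at nearly the same spot, 20 to 237 bp apart in the 7 genes. All but Slc39a4 had them after the start, as did 88.6% and 83.2% of all summits near starts in these livers. With a window of 500 bp, 5 and 4 of 7 genes had a summit in the fasted livers and 2 of 7 in refed replicate 2, because summits further into the gene were no longer counted. The genes with fasted summits alone were then Mt1, Slc39a4 and Slc39a14, so Mt2 dropped out and Slc39a14 entered. The H3K9me2 samples include no LKO liver, so they do not bear on the difference in RNA between LKO and WT.

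**Figure D4:**
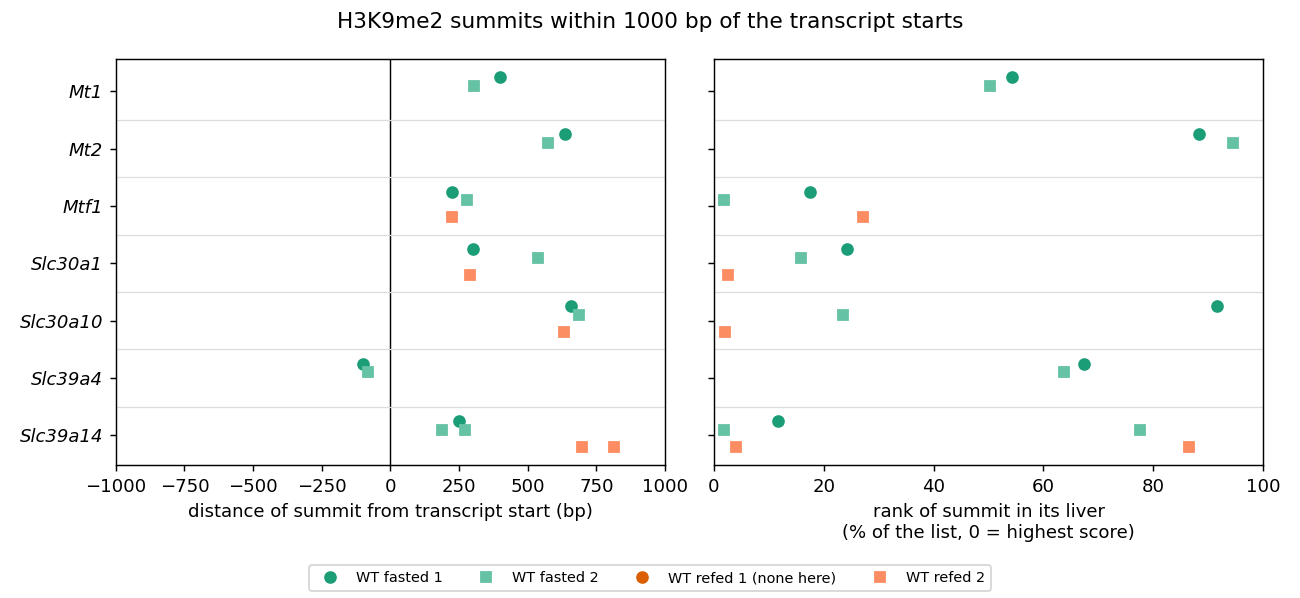
H3K9me2 summits within 1000 bp of the starts of the 7 genes in WT fasted (green) and WT refed (orange) livers, by distance from the start in bp (left) and by rank as a percentage of the liver's list (right). Mt1, Mt2 and Slc39a4 show fasted summits alone, and the summits of Slc30a1 and Slc30a10 and the stronger summit of Slc39a14 rank within the first few percent in refed replicate 2.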

How the data were processed

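Liver RNA-seq, ATAC-seq and H3K9me2 ChIP-seq samples of mouse were grouped by the GEO labels. The RNA-seq table deposited by the authors holds unscaled estimated counts for each RefSeq transcript, and the counting method is not given in the sources used here. The authors called peaks on mm10 in each sample with MACS2 2.1.1 at q-values under 0.05 and deposited summits with the −log10 of the q-value. A second deposited table holds the authors' own comparison, with p-values and fold changes, and was not used.

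Estimated counts were summed per gene, rounded and filtered with filterByExpr. LKO and WT were compared with the quasi-likelihood F test of edgeR 4.0.16 (R 4.3.3) with TMM normalization, no block and Benjamini-Hochberg adjustment over 14151 genes, which was tested on simulated data. The 2 libraries of a group are pools, and where nothing says that the pools came from separate animals p-values measure only the spread between them. TPM used RefSeq lengths, and 24682 of 24994 transcripts matched GRCm38.p6, the build of mm10. Summits were assigned to starts of 26180 genes, of which 13825 were tested in RNA-seq.

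The genes and lists were chosen with earlier results of these data known, and no list was tested as a set. Named were the 7 genes, every other SLC30 and SLC39 gene past the threshold, at most 3 genes past it per other list by smallest p (further members with values were chosen after their values were seen), and the 5 genes nearest in pattern to Mt1 and Mt2. Alternatives were DESeq2 1.42.0, its size factors, no filter, a replicate block, the highest transcript only, each library left out, windows of 500 and 2500 bp, a score of at least 5, the whole gene, and, chosen after seeing the data, lists of equal length.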

Additional observations from a re-analysis of the deposited data

How the results depend on the processing

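The log2 fold changes of Mt1 and Mt2 ranged from 2.12 to 2.48 and from 2.59 to 2.93 with a library left out, those of Slc30a1 and Slc30a10 from −0.88 to −0.58 and from −0.93 to −0.76. The lowest Slc30a1 value, −0.88, came without LKO replicate 1. Slc39a4 ranged from −0.07 to 0.16. The counts of all genes called depended on single libraries. Against 2066 higher and 1892 lower, with a library left out the counts ranged from 660 to 2590 and from 408 to 2590, with 789 and 476 without WT replicate 1 and 660 and 408 without WT replicate 2, and 1263 and 1063 were called with the highest transcript only. Of the other SLC30 and SLC39 genes 0 to 1 were called higher and 0 to 2 lower with a library left out. The same replicate numbers did not mark pairs (correlation of deviations −0.0046), and a fit with the number as a replicate block gave 2.31 for Mt1, 2.77 for Mt2 and 2 other carriers called lower, and the cause was not tested.

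Members with an H3K9me2 summit numbered 1 in fasted replicate 1, 2 in fasted replicate 2 and 0 in fasted livers alone with lists of equal length. With a window of 500 bp they numbered 4 in fasted replicate 2 and 2 in refed replicate 2. No ATAC-seq summit was found under any window, score or list length tried. With 2 libraries per group and summit lists without read counts, small differences in RNA and absent summits cannot be read further.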

Other observations

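Other cell types were followed through further marker lists in the RNA-seq libraries, where 14.6% of all genes tested rose and 13.4% fell. Of 4 stellate cell markers 1 rose, Col1a1, at 9.47 and 9.99 CPM in the WT and 11.5 and 17.8 CPM in the LKO libraries (log2 fold change 0.59, adjusted p = 0.035 in edgeR's quasi-likelihood test), and the call was lost with either of the WT libraries or LKO replicate 2 left out. Of 5 red blood cell markers 1 rose, Alas2, with a log2 fold change of 0.59 (adjusted p = 0.021), and 5 were called without WT replicate 1, whose summed red cell markers were at 1059 CPM against 587 to 927 CPM in the other libraries. Of 4 cholangiocyte and 2 tested intestinal markers 0 passed edgeR's test and 0 were called by DESeq2, with 1 cholangiocyte and 0 intestinal markers lower at an unadjusted p under 0.05. The Kupffer cell markers led by Marco (log2 fold change 1.46, adjusted p = 0.00023), Cd5l (1.46, adjusted p = 0.00028) and Adgre1 (2.25, adjusted p = 0.00031) were called 5 of 5 under every alternative tried, and the endothelial markers 1 to 4 of 4.

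Among the 20 other SLC30 and SLC39 genes, H3K9me2 summits stood at the starts of 11 and 14 in the WT fasted livers, 0 in refed replicate 1 and 13 in refed replicate 2. ATAC-seq summits stood at 3 and 2 of them for fasted WT, 3 and 1 for refed WT and 1 and 0 for refed LKO livers. Slc39a10 had one in 5 of 6 livers.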
